A study of Mus musculus with 12 samples.

Results

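The adrenergic receptors are the membrane receptors for noradrenaline and adrenaline. Their transcripts were measured here in the medial prefrontal cortex of mice. Members were taken by gene name, and the 7 names Adra1a, Adra1b, Adra1d, Adra2a, Adra2b, Adra2c and Adrb1 were all found among the 55678 gene names of the table. The samples were 12 mice, 1 library each, in 4 groups of 3. B6 controls and B6 stressed mice were of the strain C57BL/6JmsSlc, and BALB/c controls and BALB/c stressed mice of the strain BALB/cCrSlc. No transgene or drug was named for any group. Stressed mice had chronic restraint stress (CRS), 6 h of restraint a day in the home cage for 21 days, and controls were handled without restraint. All mice were 9 to 10 weeks old, had gone through behavioural testing, and gave 1 punch of cortex 1.5 mm wide. Sex, litter and sequencing batch are not stated in the labels used here. Libraries are named below by strain, treatment and the animal number of the labels.

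Noradrenaline reaches the prefrontal cortex along axons of the locus coeruleus, a small brainstem nucleus. Alpha1 receptors couple to Gq and phospholipase C, alpha2 receptors couple to Gi and lower cyclic AMP, and the beta1 receptor couples to Gs and raises cyclic AMP. In the prefrontal cortex, alpha2A signalling is known for supporting working memory at moderate noradrenaline release, while alpha1 receptors are engaged at the higher release of stress.

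Levels are in TPM (a transcript abundance divided by transcript length, with every library brought to one common total), so they can be set side by side between genes. TPM keeps no read depth, and precision therefore rests on the spread between animals. A gene entered the tests if 3 or more libraries had 1 TPM or more of it. This left 16423 genes, and 6 of the 7 receptors were among them. Adra2b was not. Differences are on the scale log2(TPM + 1), which understates the change of low genes. Tests were made with limma, a linear model that borrows each gene's spread from the others, and a difference is called where its p, adjusted by Benjamini-Hochberg over all genes tested, is under 0.05.

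The libraries differed in their cell type markers, and these values bear on every strain comparison below. Transcripts of striatal medium spiny neurons (a list of 10 genes with Drd1, Drd2 and Adora2a, none at 0 in any library) summed to 1856, 347 and 190 TPM in B6 controls 2, 3 and 9. They summed to 1494, 1210 and 702 TPM in the B6 CRS libraries 12, 13 and 14, and to between 112 and 305 TPM in the 6 BALB/c libraries. Oligodendrocyte markers (6 genes) summed to between 1126 and 4268 TPM in B6 and between 206 and 1376 TPM in BALB/c. Excitatory neuron markers of the cortex (5 genes, among them Slc17a7 and Tbr1, all above 0 in all 12 libraries) summed to between 1192 and 2469 TPM in B6 and between 1613 and 2240 TPM in BALB/c. B6 control 9 had the lowest striatal sum of the B6 libraries and the highest excitatory sum of all 12.

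The alpha1B receptor gene, Adra1b, lies at chr11:43774606-43901210 on the minus strand (build GRCm38, GENCODE M21), and its coding transcripts there have between 2 and 5 exons. The table held 3 rows for it, of which 1 was at 0 in all 12 libraries and the others carried 51.2% and 48.8% of its TPM. RefSeq gives it more than 1 start, and the 250 bases before each of 2 starts are shown because Adra1b had the smallest adjusted p among the receptors. Sequences are RefSeq's for GRCm38.p6, minus strand, 5′ to 3′. Capitals mark a GC box (GGGCGG, here on the other strand) or a CCAAT box (CCAAT).
chr11:43836490-43836739: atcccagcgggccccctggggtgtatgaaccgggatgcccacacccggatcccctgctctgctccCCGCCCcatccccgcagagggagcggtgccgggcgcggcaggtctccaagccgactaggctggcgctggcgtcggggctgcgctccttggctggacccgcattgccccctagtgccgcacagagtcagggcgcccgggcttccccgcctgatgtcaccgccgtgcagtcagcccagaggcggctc
chr11:43901238-43901487: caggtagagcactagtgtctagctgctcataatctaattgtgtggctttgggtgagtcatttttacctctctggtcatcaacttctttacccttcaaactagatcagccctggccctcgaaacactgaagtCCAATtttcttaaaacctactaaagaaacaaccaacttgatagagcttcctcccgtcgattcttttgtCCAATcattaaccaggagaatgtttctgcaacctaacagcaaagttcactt
The first window was 72.8% G and C and held 1 GC box and 0 CCAAT boxes. The other was 41.6% G and C and held 0 GC boxes and 2 CCAAT boxes. Over 32851 windows of the same length before gene starts, searched on both strands, 32.7% held a GC box and 33.8% a CCAAT box. Neither Adra1b window held the TATA box TATAAA (in 12.4% of windows) or the cyclic AMP response element TGACGTCA (1.55%). These letter matches describe the sequence and were not linked to the expression values.

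Adra1b was higher in the BALB/c libraries than in most B6 libraries. The strains also differed in striatal marker content, as given above, so this is not a difference between punches of like content. It stood at 4.49, 7.82 and 15.9 TPM in B6 controls 2, 3 and 9, and at 4.70, 5.97 and 5.01 TPM in the 3 B6 CRS libraries. In BALB/c it stood at 17.9, 15.4 and 22.4 TPM in controls 5, 9 and 10, and at 12.5, 19.1 and 12.7 TPM in CRS libraries 12, 13 and 15. Every BALB/c library lay above 5 of the 6 B6 libraries, and B6 control 9 alone lay inside the BALB/c range.

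Over 6 libraries a strain, Adra1b averaged 7.31 ± 4.37 TPM in B6 against 16.7 ± 3.89 TPM for BALB/c (± SD). Averaged over treatments, the difference was 1.19 on the log2 scale (SE 0.23, 95% interval 0.69 to 1.68, limma adjusted p = 0.00449). That is a ratio of 2.28 in TPM + 1, taken from means of log2 values. Under CRS alone the difference was 1.32 (SE 0.32, adjusted p = 0.0297) and the groups did not overlap. In controls alone it was 1.05 (SE 0.32, 95% interval 0.35 to 1.76, adjusted p = 0.0936) and was not called. Both of its expressed rows carried the strain difference, at 1.95 to 7.49 TPM in B6 against 5.26 to 12.3 TPM in BALB/c for the first and 2.13 to 8.40 against 6.24 to 10.1 for the other.

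Adra1d, which encodes the alpha1D receptor, was likewise higher in the BALB/c libraries than in most B6 libraries. The gene lies at chr2:131545850-131562283 on the minus strand, has 2 exons and was a single row of the table. It measured 5.31, 10.3 and 26.5 TPM in B6 controls 2, 3 and 9, and 4.22, 8.60 and 7.31 TPM in the B6 CRS libraries. The BALB/c controls had 25.8, 16.0 and 32.95 TPM, and the BALB/c CRS libraries 22.6, 28.9 and 17.8 TPM. Again B6 control 9 lay among the BALB/c libraries and the other 5 B6 libraries lay below all of them. Adra1d varied more than any other tested receptor, by 7.80 times between its lowest and highest library.

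Over 6 libraries a strain, Adra1d averaged 10.4 ± 8.18 TPM in B6 against 24.0 ± 6.51 TPM for BALB/c (± SD). The averaged log2 difference was 1.33 (SE 0.32, 95% interval 0.64 to 2.02, limma adjusted p = 0.0134). That is a ratio of 2.51 in TPM + 1, taken from means of log2 values and not from the mean TPM above. Under CRS it was 1.66 (SE 0.45, adjusted p = 0.0437) with groups that did not overlap, and in controls 0.99 (SE 0.45, adjusted p = 0.258). An antisense gene, Gm14285, overlaps Adra1d on the other strand and is listed at 0 to 2.97 TPM. Whether counting used strand is not given in the sources used here, so reads of this pair may be mixed and the level of Adra1d is uncertain to that extent.

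Adra1a, the alpha1A receptor gene (chr14:66635251-66771168, plus strand), was the lowest of the alpha1 genes. It stood at 3.35, 6.19 and 6.05 TPM in B6 controls, 3.68, 4.04 and 3.17 in B6 CRS, 5.98, 5.01 and 4.17 in BALB/c controls, and 4.19, 6.02 and 5.30 in BALB/c CRS libraries. The CRS groups of the strains did not overlap, with BALB/c above B6 by 0.41 (SE 0.21, limma adjusted p = 0.262). The difference was -0.0081 in controls (adjusted p = 0.991) and 0.20 averaged over treatments (adjusted p = 0.387), and none of these was called. Over the 12 libraries Adra1a spanned 1.96 times, the narrowest range of the 6 tested receptors.

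**Figure D1:**
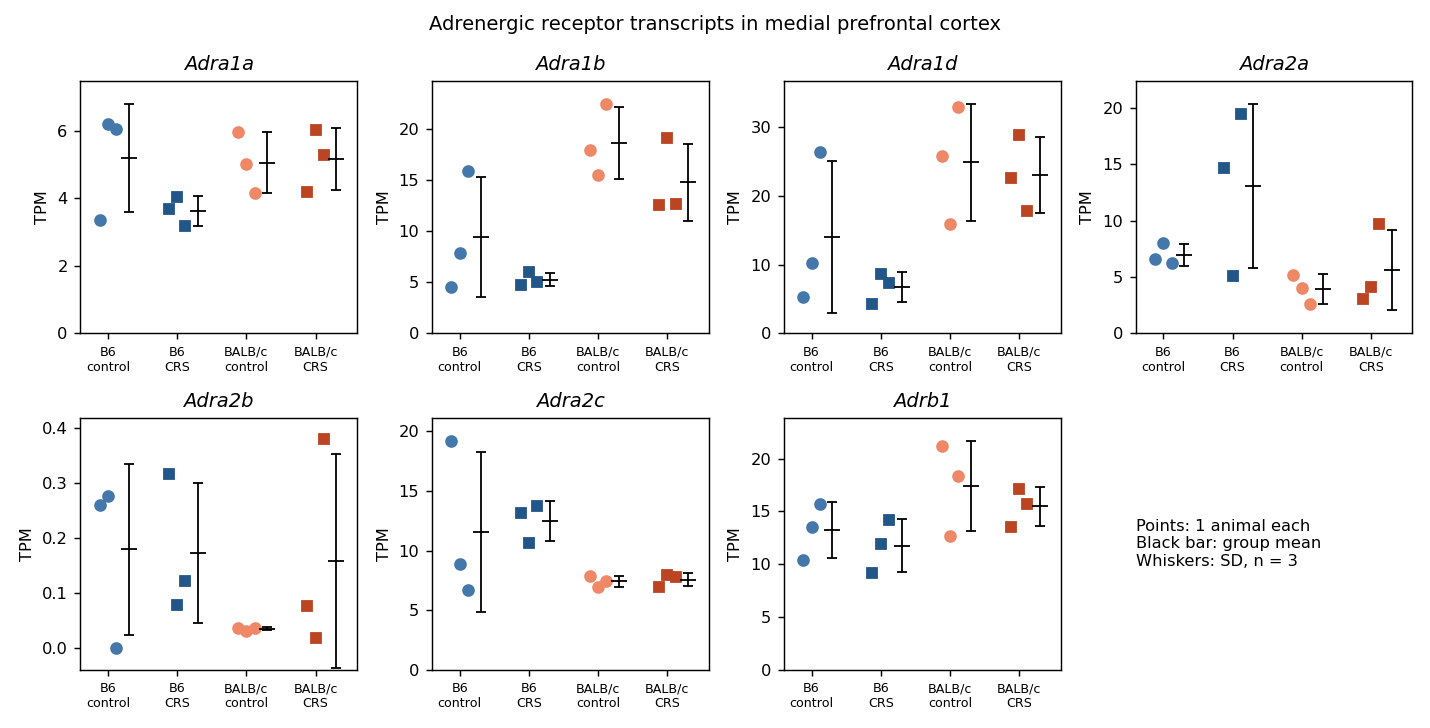
Each panel plots 1 receptor, with TPM on the vertical axis and the 4 groups on the horizontal axis. Points are single animals, black bars group means and whiskers the SD of 3 animals. The highest B6 point of Adra1b (15.9 TPM) and of Adra1d (26.5 TPM) is B6 control 9.

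The alpha2 genes were ordered the other way between strains, and none was called. Adra2a encodes the alpha2A receptor, which sits both on noradrenergic terminals and on cortical neurons, and lies at chr19:54044151-54048982 on the plus strand. It stood at 6.62, 8.04 and 6.21 TPM in B6 controls, and at 14.6, 5.11 and 19.5 TPM in B6 CRS libraries 12, 13 and 14. BALB/c controls had 5.17, 3.99 and 2.57 TPM, and BALB/c CRS libraries 12, 13 and 15 had 3.01, 4.12 and 9.68 TPM. The 3 B6 controls lay above the 3 BALB/c controls, while 2 B6 CRS libraries and 1 BALB/c CRS library stood well above the rest of their groups.

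The B6 mean of Adra2a was 10.01 ± 5.73 TPM and the BALB/c mean 4.76 ± 2.58 TPM (± SD, n = 6 a strain). The log2 difference, BALB/c minus B6, was -0.89 averaged over treatments (SE 0.30, 95% interval -1.55 to -0.23, limma adjusted p = 0.0627). It was -0.72 in controls (SE 0.43, adjusted p = 0.407) and -1.05 under CRS (SE 0.43, adjusted p = 0.16). Without B6 CRS 13 the averaged difference was -1.15 (adjusted p = 0.0106), and without BALB/c CRS 15 it was -1.10 (adjusted p = 0.0237), both of which would be called. Without B6 CRS 14 it was -0.71 (adjusted p = 0.131). Under CRS it was -1.57 without B6 CRS 13 (adjusted p = 0.0333) and -0.70 without B6 CRS 14 (adjusted p = 0.381).

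Adra2c encodes the alpha2C receptor, known for its high level in striatum, and is a single-exon gene at chr5:35278319-35281763 on the plus strand. It stood at 19.2, 8.84 and 6.68 TPM in B6 controls 2, 3 and 9 and at 13.2, 10.6 and 13.7 TPM in B6 CRS libraries. In BALB/c it was at 7.85, 6.94 and 7.44 TPM in controls and 6.91, 7.96 and 7.76 TPM under CRS. The 6 BALB/c libraries lay within a narrow band, and B6 control 9 fell below all of them.

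The B6 mean of Adra2c was 12.04 ± 4.40 TPM and the BALB/c mean 7.48 ± 0.460 TPM (± SD, n = 6 a strain). The averaged log2 difference was -0.55 (SE 0.19, 95% interval -0.97 to -0.14, limma adjusted p = 0.0647). It was -0.65 under CRS (SE 0.27, adjusted p = 0.165), where the groups did not overlap, and -0.46 in controls (SE 0.27, adjusted p = 0.408). B6 control 2, which had the highest striatal marker sum, also had the highest Adra2c. Without it the difference in controls was -0.049, while the averaged difference was -0.35 with an adjusted p of 0.0492 and the difference under CRS had an adjusted p of 0.0147. Without B6 control 9 the averaged difference was -0.70 (adjusted p = 0.0101).

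Adra2b, the alpha2B receptor gene at chr2:127363208-127367221 on the plus strand, was close to the floor. Its highest value was 0.380 TPM, in BALB/c CRS 15, and B6 control 9 listed it at 0. The group means were 0.179 and 0.171 TPM in B6 controls and B6 CRS mice, and 0.0342 and 0.158 TPM in BALB/c controls and CRS mice. It did not pass the filter on low values, and no difference is drawn from it.

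Adrb1, the beta1 receptor gene (chr19:56722199-56733113, plus strand), was among the more abundant receptors in all 4 groups. It stood at 10.4, 13.5 and 15.7 TPM in B6 controls, 9.17, 11.9 and 14.2 in B6 CRS, 21.1, 12.7 and 18.3 in BALB/c controls, and 13.5, 17.1 and 15.7 in BALB/c CRS libraries. The strains overlapped under each treatment. The averaged difference was 0.37 (SE 0.15, 95% interval 0.051 to 0.69, limma adjusted p = 0.103) and was not called. It was 0.36 in controls (adjusted p = 0.389) and 0.38 under CRS (adjusted p = 0.295). Without BALB/c control 9 the averaged difference was 0.47 (adjusted p = 0.0378), and without B6 CRS 12 it was 0.29 (adjusted p = 0.222). In controls it was 0.21 without either B6 control 2 or BALB/c control 5 and 0.56 without BALB/c control 9, and under CRS 0.23 without B6 CRS 12.

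The strain counts over the receptors are read against the share of all tested genes called. Averaged over treatments, 2 of 6 tested receptors were called, both higher in BALB/c, where 18.4% of all genes were called and 4.05% were called higher. Under CRS the same 2 genes, Adra1b and Adra1d, were called, against 7.7% of all genes and 2.37% called higher. In controls limma called 0 of 6, with 2 at an unadjusted p under 0.05, against 4.73% of all genes called and 18.7% at an unadjusted p under 0.05. These comparisons share libraries, since the average uses both treatments, and they do not repeat each other independently.

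Groups of 3 did not overlap for 4 of 6 receptors under CRS (Adra1a, Adra1b, Adra1d and Adra2c), against 29.3% of all genes. They did not overlap for 1 of 6 in controls (Adra2a), against 22.9% of all genes. With 6 libraries a strain, the strains overlapped for all 6, against 8.95% of all genes that did not. The median difference over the 6 tested receptors was 0.18 in controls, 0.39 under CRS and 0.29 averaged, beside -0.10, -0.059 and -0.081 over all genes tested.

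**Figure D2:**
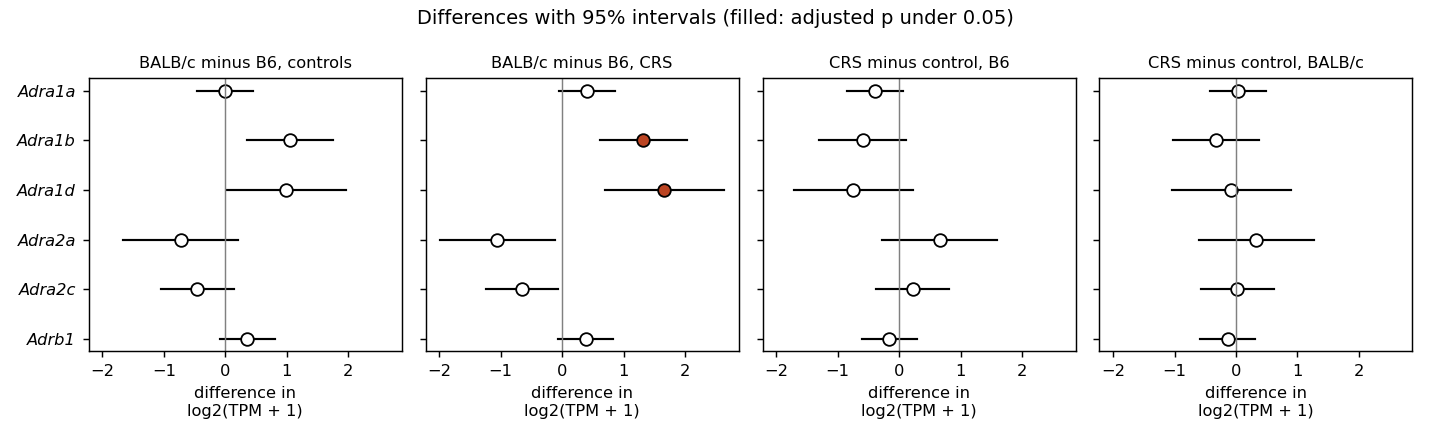
Each panel shows 1 comparison for the 6 tested receptors, with the difference in log2(TPM + 1) on the horizontal axis. Points are limma estimates, lines 95% intervals, and filled points have an adjusted p under 0.05. Filled points are those of Adra1b (1.32) and Adra1d (1.66) in the strain comparison under CRS.

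The calls of Adra1b and Adra1d moved with single libraries. In controls both would be called without B6 control 9, at 1.48 (limma adjusted p = 0.00417) and 1.56 (adjusted p = 0.0214). Without B6 control 2 the control differences were 0.67 (adjusted p = 0.285) and 0.50 (adjusted p = 0.62). Under CRS, leaving out any 1 of the 6 CRS libraries ended the Adra1b call, with adjusted p from 0.0557 to 0.103. The Adra1d call under CRS ended without each of the 6 CRS libraries, B6 control 3, BALB/c control 5 or BALB/c control 10, with adjusted p from 0.051 to 0.159. With no filter on low values neither was called under CRS (adjusted p = 0.0726 for Adra1b and 0.101 for Adra1d). Averaged over treatments, both calls held without each of the 12 libraries in turn, with differences of 0.99 to 1.40 for Adra1b and 1.08 to 1.61 for Adra1d.

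The cell type markers moved with the strain difference. All 10 striatal markers were lower in BALB/c in each strain comparison, with 10 called averaged over treatments, 9 under CRS and 0 in controls (4 at an unadjusted p under 0.05), and a median difference of -2.26 averaged over treatments. All 6 oligodendrocyte markers were called lower averaged over treatments (median -2.28). All 5 excitatory neuron markers had positive differences in each strain comparison, with 2 called averaged over treatments (median 0.40). Neurod6, a transcription factor gene of cortical projection neurons, was called higher (0.78, limma adjusted p = 0.00794). Averaged over treatments, all 6 astrocyte markers had negative differences (median -0.38) and 2 were called, Aqp4 and Gja1. Of 6 genes listed for interneurons 3 were called lower (Gad1, Gad2 and Slc32a1) and 1 higher (Vip). The differences of this list were 2 positive and 4 negative. The part of striatal content in them was not tested. Of 6 microglia markers 2 were called lower, C1qa among them (-0.28, limma adjusted p = 0.0197). The microglia differences were 4 negative and 2 positive, with a median of -0.059 beside -0.081 over all genes tested. With the striatal score (the mean log2 value of the 10 markers) as a covariate, the averaged strain difference was 0.33 for Adra1b (SE 0.23, adjusted p = 0.499) and 0.060 for Adra1d (SE 0.27, adjusted p = 0.933). With an oligodendrocyte score instead, the values were 0.66 (adjusted p = 0.619) and 0.37 (adjusted p = 0.887). Strain and these scores differ together, so the fit cannot tell them apart. In tissue RNA, fewer cells of a type and less RNA per cell also cannot be told apart.

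**Figure D3:**
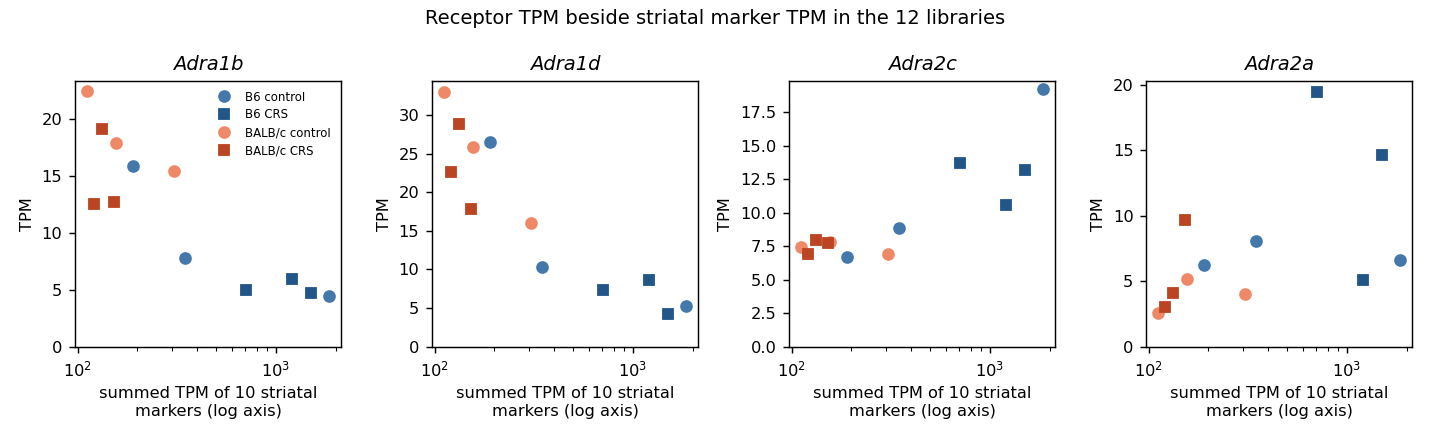
Each panel plots the TPM of 1 receptor (vertical axis) beside the summed TPM of the 10 striatal markers (horizontal log axis), 1 point per library and 1 colour per group. B6 control 9, at 190 TPM of striatal markers, lies among the BALB/c libraries for Adra1b and Adra1d, and B6 control 2, at 1856 TPM, has the highest Adra2c.

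The share of each receptor class in the summed TPM of the 7 genes put these values together. Alpha1 transcripts made up 26.5%, 44.2% and 62.9% of the sum in B6 controls 2, 3 and 9, and 25.3%, 40.2% and 24.6% in the B6 CRS libraries. In BALB/c they made up 59.2%, 60.6% and 67.7% in controls and 62.6%, 64.9% and 51.6% under CRS. Alpha2 transcripts ran from 16.7% to 56.4% in B6 and from 11.4% to 25.7% in BALB/c. The beta1 share was nearly level over the groups, with means of 22.0% and 22.2% in B6 controls and B6 CRS, and 22.4% and 21.6% in BALB/c controls and BALB/c CRS. B6 control 9 had an alpha1 share within the BALB/c range. The summed TPM was 60.5 ± 14.5 and 53.05 ± 8.76 in B6 controls and CRS, and 77.3 ± 15.05 and 71.8 ± 10.4 in BALB/c controls and CRS (SD, n = 3 each).

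**Figure D4:**
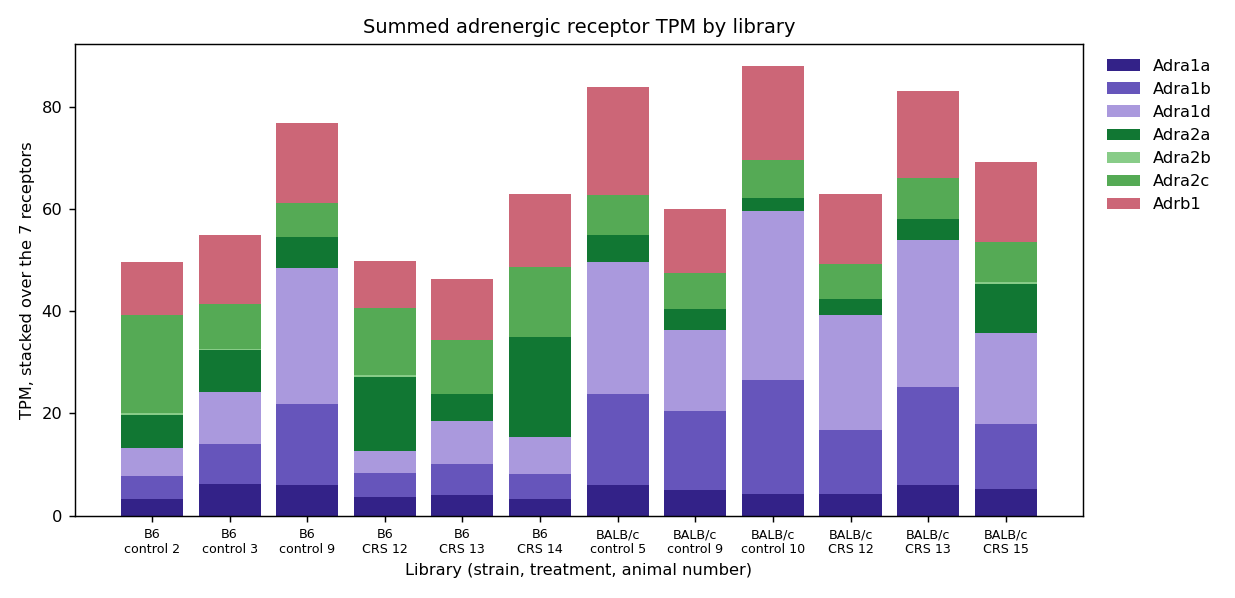
Bars stack the TPM of the 7 receptors in each of the 12 libraries, named by strain, treatment and animal number. The alpha1 part is the largest class in all 6 BALB/c libraries and in B6 controls 3 and 9 and B6 CRS 13, while B6 control 2 and the B6 CRS libraries 12 and 14 have more alpha2 than alpha1.

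The order of the receptors also differed by group. Adra1d was the most abundant receptor in 6 of 6 BALB/c libraries and in 1 of 6 B6 libraries, where Adra2a and Adrb1 led in 2 each and Adra2c in 1. In B6 controls the group means ran Adra1d, Adrb1, Adra2c, Adra1b, Adra2a, Adra1a, Adra2b, and only the last 2 steps separated neighbours whose libraries did not overlap. In B6 CRS mice they ran Adra2a, Adra2c, Adrb1, Adra1d, Adra1b, Adra1a, Adra2b, with separate neighbours at Adrb1 and Adra1d, Adra1b and Adra1a, and Adra1a and Adra2b. In BALB/c controls they ran Adra1d, Adra1b, Adrb1, Adra2c, Adra1a, Adra2a, Adra2b, and the separate neighbours were Adrb1 and Adra2c, Adra2c and Adra1a, and Adra2a and Adra2b. In BALB/c CRS mice they ran Adra1d, Adrb1, Adra1b, Adra2c, Adra2a, Adra1a, Adra2b, with separate neighbours at Adra1d and Adrb1, Adra1b and Adra2c, and Adra1a and Adra2b.

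Restraint was not followed by a called difference in any receptor in either strain. In B6, limma called 0 of 6 (0 at an unadjusted p under 0.05), where 0% of all genes were called and 4.82% were at an unadjusted p under 0.05. In BALB/c it also called 0 of 6 (0 at an unadjusted p under 0.05), against 0.00609% of all genes called and 3.03% at an unadjusted p under 0.05. The control and CRS libraries overlapped for all 6 in both strains, against 8.33% of all genes in B6 and 7.39% in BALB/c whose groups did not. Each adjusted p was 1.

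The restraint estimates, CRS minus control, had wide intervals. Adra1b was at -0.59 in B6 (95% interval -1.30 to 0.11) and -0.32 in BALB/c (-1.03 to 0.38), and Adra1d at -0.74 in B6 (-1.72 to 0.23) and -0.074 in BALB/c (-1.05 to 0.90). Without B6 control 9 the B6 estimates of these genes were -0.17 and -0.18, and without B6 control 2 they were -0.98 and -1.24. Under restraint in B6 all 10 striatal markers had positive differences (median 1.19, 0 called by limma, 2 at an unadjusted p under 0.05) and all 5 excitatory markers negative ones (median -0.44, 0 called, 1 at an unadjusted p under 0.05). With the striatal score as a covariate the B6 estimates were -0.11 for Adra1b and -0.028 for Adra1d. Adra2a was at 0.66 in B6 (-0.28 to 1.60) and 0.33 in BALB/c (-0.61 to 1.27). Its B6 estimate was 1.17 without B6 CRS 13 and 0.30 without B6 CRS 14. With a replicate block it was 1.41, but the block uses animal numbers shared between strains, which do not pair the mice. Adra1a was at -0.39 and 0.027, Adra2c at 0.22 and 0.022, and Adrb1 at -0.16 and -0.14 in B6 and BALB/c. The median over the 6 receptors was -0.27 in B6 and -0.026 in BALB/c, beside 0 and 0.045 over all genes.

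Averaged over strains, the smallest adjusted p for restraint among the receptors was 0.946 (Adra1b), with 0 of 6 called and 0 at an unadjusted p under 0.05, against 0.00609% of all genes called and 5.17% at an unadjusted p under 0.05. For the test of whether restraint acted differently in the strains, every receptor's adjusted p was 1, with 0 of 6 called and 0 at an unadjusted p under 0.05. That test called 0% of all genes, with 2.7% at an unadjusted p under 0.05.

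Genes of the noradrenaline pathway were described from 4 lists with 56 genes in all, of which 53 were tested. Averaged over treatments, 6 of the 53 were called lower in BALB/c and 0 higher, against 14.3% and 4.05% of all genes. In the list for synthesis, transport and breakdown, 3 of 7 tested genes were called lower. Maob, the monoamine oxidase that breaks down amines and is abundant in glia, was at 16.5 to 21.2 TPM in B6 and 10.5 to 12.6 TPM in BALB/c (-0.69, SE 0.081, limma adjusted p = 0.000129). The astrocyte markers, of which 2 of 6 were called lower, moved with it, and their part in the result was not tested. Ddc, the decarboxylase that makes dopamine, was at 3.33 to 10.4 TPM in B6 and 2.17 to 3.19 TPM in BALB/c (-1.27, SE 0.20, adjusted p = 0.00138). Th, the rate-limiting enzyme of catecholamine synthesis, was at 2.13 to 5.50 TPM in B6 and 0.682 to 2.58 TPM in BALB/c (-0.87, SE 0.19, adjusted p = 0.00921).

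Unlike Th, a pair of genes that mark noradrenergic cell bodies was near 0. Dbh, which turns dopamine into noradrenaline, reached at most 0.452 TPM, and the noradrenaline transporter gene Slc6a2 at most 0.0196 TPM.

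Among 26 second messenger effectors 2 were called lower averaged over treatments. Adcy5, an adenylyl cyclase abundant in striatal neurons, had 169.0, 51.9 and 42.7 TPM in the B6 controls 2, 3 and 9 and 149, 109 and 90.1 TPM in the B6 CRS libraries (-1.24, SE 0.28, limma adjusted p = 0.0101). It was at 30.4 to 44.2 TPM in BALB/c, and B6 control 9 was inside that range. Pde4b, a phosphodiesterase that breaks down cyclic AMP, was at 51.6 to 63.2 TPM in B6 and 36.5 to 53.1 TPM in BALB/c (-0.33, SE 0.10, adjusted p = 0.0371). The Pde4b call ended with no filter on low values (adjusted p = 0.0616), with no intensity trend (0.0515) and in 9 of the 12 fits that left out 1 library (0.0567 to 0.0842), all but those without B6 control 9, BALB/c control 5 or BALB/c CRS 13. Of 12 receptor kinases, arrestins and RGS proteins, 1 was called lower, Rgs10, which speeds up the turn-off of Gi signalling (-0.67, SE 0.17, adjusted p = 0.0189, and 0.0504 under median-of-ratios scaling).

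Of the 8 G protein alpha subunits, limma called 0. The lowest p were those of Gnai3 (-0.20, adjusted p = 0.236) and Gnai1 (-0.15, adjusted p = 0.252), which encode Gi subunits. In controls 2 of the 53 genes were called lower, Ddc and Maob, against 3.37% of all genes. Under CRS 3 were called lower, Ddc, Maob and Adcy5, against 5.33% of all genes. The Ddc call in controls ended with no filter (adjusted p = 0.0972), at a mean of 5 TPM (0.0505), under median-of-ratios scaling (0.076) and with the replicate block (0.0605). It also ended in 8 of the 12 fits that left out 1 library (0.0525 to 0.136), those without B6 control 2 or 3, B6 CRS 12 or 13, any BALB/c control, or BALB/c CRS 15. The Ddc call under CRS ended without B6 CRS 12 or BALB/c CRS 12 (0.064 and 0.0636). The Adcy5 call under CRS ended with no filter (0.084), under median-of-ratios scaling (0.0501), with the replicate block (0.0772), and without B6 CRS 12 or 13, BALB/c control 5 or any BALB/c CRS library (0.0525 to 0.133). The fits with a covariate moved these calls too. With the striatal and the oligodendrocyte score in turn, Ddc had a limma adjusted p of 0.116 and 0.719 in controls. Under CRS it had 0.694 and 0.546, and Adcy5 had 0.979 and 0.78. The Maob call in controls held with the striatal score (0.0142) and ended with the oligodendrocyte score (0.0793). Under CRS the Maob call ended with each score (0.194 and 0.132). In the restraint comparisons and in the test of the difference between strains, limma called 0 of the 53.

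The pathway split depended on the scaling. With median-of-ratios scaling, which moved the median strain difference of all genes in controls from -0.10 to -0.0030, 14 pathway genes were called averaged over treatments, 9 higher and 5 lower, among them Prkaca (0.26) and Arrb2 (0.23) higher. Over all genes the same scaling called 1418 higher and 1750 lower, so the split moved there too. Adra1b and Adra1d were called under that scaling too, and Adrb1 joined them at 0.45 (limma adjusted p = 0.0223). With the striatal score as a covariate, 1 pathway gene was called averaged over treatments, Maob at -0.67 (adjusted p = 0.0212), and Adcy5 was at -0.082 (adjusted p = 0.87).

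Other genes were ranked by how closely their log2(TPM + 1) followed each receptor over the 12 libraries. Tested genes with a mean of at least 5 TPM were compared, leaving out symbols with Gm plus digits, Rik or -ps. That gave 10487 genes for Adra1a and 10486 for each other receptor. These Pearson r describe libraries that share strain and marker content, and no test was made. Adra1b was closest to Lsm11 (r = 0.987), Igfbp6 (0.973) and C77080 (0.971). Adra1d was closest to Grm2, a presynaptic glutamate receptor gene (r = 0.985), C77080 (0.984) and the potassium channel gene Kcnk4 (0.983). C77080 stood in both lists.

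The remaining receptors had other neighbours. Adra2a was closest to Sdhc (r = 0.971), Tmem130 (0.942) and the serotonin receptor gene Htr2c (0.934). Adra2c was closest to Gpr146 (r = 0.967), Bcr (0.956) and Acaa2 (0.942). Adrb1 was closest to Fam124a (r = 0.963), Il34 (0.956) and the potassium channel gene Kcnj9 (0.94). Adra1a was closest to Sema3c (r = 0.905), Ldb2 (0.902) and Khdrbs3 (0.9).

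No receptor gene had a near-identical copy among the transcripts of other genes, searched on the same strand. No other gene matched any of the 7 at 95% identity over 80% of the shorter transcript. Shorter shared stretches and antisense overlap, such as that of Adra1d and Gm14285, were outside this search. The most alike pairs were Adra2a and Adra2c, 77.0% identical over 557 aligned bases, and Adra2b and Adra2c, 75.4% identical over 528 aligned bases. Adra1a and Adra1b were 68.4% identical over 923 aligned bases.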

How the data were processed

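Per the labels' protocols, cortex RNA of 12 mice went into stranded mRNA libraries, read as 150 bp pairs with roughly 6 Gb each. The authors deposited TPM values, 1 column per library and 147902 rows with gene names; each column sums to 1000000. Per the submitters' processing notes the build was GRCm38, and cutadapt 2.9 and Salmon were used. The annotation and strand setting are not given in the sources used here. Read depth is unknown, so no counting interval is given. Every column belonged to a sample.

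TPM was summed per gene name, and log2(TPM + 1) was fitted in limma 3.58.1 (R 4.3.3; lmFit, contrasts.fit, eBayes with an intensity trend) over the 16423 genes that had 1 TPM or more in 3 or more libraries, as 4 group means with 8 residual degrees of freedom, and was tested on simulated data. The labels number animals, 1 library each. Animal numbers 9, 12 and 13 occur in both strains, whose mice are different animals, and the numbers do not pair them. Locations come from GENCODE M21 (GRCm38), sequences from RefSeq (GRCm38.p6), which held a promoter window for 5 of the 7 receptors. Similarity was measured with blastn 2.17.0, and tables and figures were made in Python 3.11.15 with pandas 2.3.3 and matplotlib 3.10.9. Named genes were all 7 receptors, every called pathway gene (or, in a list with none called, the 2 of lowest p averaged over treatments) and the 3 genes of highest Pearson r with each receptor. The receptors, lists and tests were chosen with earlier results of these data known. Alternatives changed the pseudocount, filter, scaling and trend, added a striatal or oligodendrocyte covariate or a replicate block, and left out each library. Some marker genes are not reported here.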

Additional observations from a re-analysis of the deposited data

How the results depend on the processing

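The averaged strain calls of Adra1b and Adra1d held under a pseudocount of 0.1, no filter, a filter at a mean of 5 TPM, median-of-ratios scaling, no intensity trend and a replicate block; with the striatal or the oligodendrocyte score as a covariate 0 receptors were called. Under CRS, where 2 receptors were called, the count was 0 with no filter, 1 with no intensity trend, 0 with either covariate and 0 with the replicate block (Adra1b 1.32, limma adjusted p = 0.054; Adra1d 1.66, adjusted p = 0.0815). Leaving out each library gave 0 to 2 receptors called in controls, 0 to 3 under CRS and 2 to 3 averaged. Averaged over treatments, the Adra2a difference ran from -1.02 to -0.82 over the 8 alternative settings, both covariates included, with limma adjusted p up to 0.705. It was called in 1 of them, the replicate block (-0.89, adjusted p = 0.0293). The animal numbers used for the block do not pair the mice, which are different animals of different strains. The deviations of same-numbered libraries from their group means correlated at -0.242 (number 9), -0.0293 (12) and -0.0361 (13) over 16423 genes. These values are not correlations of the whole libraries. Some directions reversed, among them that of Adra1d under CRS, which was called at 1.66. In controls Adra1a was 0.086 under median-of-ratios scaling and 0.048 with the oligodendrocyte score. With the striatal score, the CRS strain difference was -0.036 for Adra1a, -0.068 for Adra1d, 0.27 for Adra2c and -0.25 for Adrb1, and averaged it was -0.13 for Adra1a, 0.12 for Adra2c and -0.094 for Adrb1. For restraint in B6 it gave -0.16 for Adra2c and 0.10 for Adrb1. For restraint in BALB/c, Adra1a was -0.016 under median-of-ratios scaling and -0.026 with the striatal score, and Adra2c was -0.023 under median-of-ratios scaling and -0.060 with the replicate block. Leaving out 1 library moved the control difference of Adra1a from -0.25 to 0.12, restraint in B6 for Adra2c from -0.072 to 0.63, and restraint in BALB/c from -0.081 to 0.15 for Adra1a, -0.35 to 0.15 for Adra1d, -0.082 to 0.63 for Adra2a, -0.019 to 0.076 for Adra2c and -0.34 to 0.010 for Adrb1. The cause was not tested. Over all genes, 777 calls in controls became 437 at a mean of 5 TPM and 275 with the oligodendrocyte score, 1264 under CRS became 702, 227 (striatal), 249 (oligodendrocyte) and 750 (block), and 3021 averaged became 1929, 505 and 365. The counts of 437, 702 and 1929 come from a filter that tests fewer genes. They are not out of 16423 and do not count calls lost among the same genes. Leaving out a library gave 428 to 1389 in controls, 539 to 1852 under CRS and 1975 to 3787 averaged. Median-of-ratios scaling changed the split of higher and lower calls from 224 and 553 to 317 and 394 in controls, from 389 and 875 to 640 and 758 under CRS, and from 665 and 2356 to 1418 and 1750 averaged.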
